A study of Saccharomyces cerevisiae W303 with 28 samples.

Results

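DNA lost around an induced double-strand break was read from the whole-cell extracts (input DNA) of a budding yeast chromatin immunoprecipitation sequencing (ChIP-seq) series. The members were the 14 whole-cell extracts of 28 libraries, chosen by library type and break state as the labels give them: 12 extracts of cells with a cleavable break site and 2 of cells whose site cannot be cleaved. The other 14 libraries are the matching immunoprecipitates of Scc1, the subunit that closes the cohesin ring. The study compared cohesin on broken and unbroken chromosomes. All cells had 4 h of galactose, were fixed and sonicated, and were mixed with Candida glabrata as a calibrator.

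With the tag Scc1-PK9 (called Pk here) there was 1 extract each of wild type cut without nocodazole, wild type cut with nocodazole, rad17 cut with nocodazole and wild type uncut with nocodazole. With Scc1-6HA (called HA), all with nocodazole, there were 2 extracts each of wild type, rad17, pds5-AID and rad17 pds5-AID cut, and 1 of wild type uncut. An untagged wild type, cut and with nocodazole, gave 1 extract. Nocodazole depolymerises microtubules and holds cells in mitosis. Rad17 is part of the checkpoint clamp that signals DNA damage. Pds5 binds cohesin, and AID is an auxin-inducible degron. The labels do not mention auxin, so depletion of Pds5 is not given. Replicates of one HA genotype share 1 strain, and nothing says that they came from separate cultures, so the p-values below reflect only library-to-library spread, possibly technical. The HA uncut extract carries a treatment entry for break induction, although its title calls the site uncleavable. The title was followed, and the extract showed no loss at the break.

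In yeast with a galactose-driven endonuclease, the nuclease cuts its single site and goes on cutting it when it is repaired faithfully. The ends are then resected: nucleases degrade the strand that ends 5′ at the break, first over a short stretch and then over long distances, and leave single-stranded 3′ tails. The checkpoint clamp, to which Rad17 belongs, is loaded at such resected DNA. Single-stranded DNA is lost from libraries built by ligation of double-stranded fragments, which is how input coverage can fall around a break. In such bulk extracts, a larger share of cut cells and more DNA lost in each cut cell cannot be told apart.

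Values below are relative coverage, the deposited coverage of a 1 kb window divided by the median over all 12447 windows of that library, so 1.00 is the library's typical window. The library medians ran from 43.6 to 112 over the 14 extracts. In 11 of the 12 cut extracts the coverage was even, with a standard deviation (SD) of log2 relative coverage of 0.211 to 0.261 off chromosome 5. In the remaining 3, namely both uncut extracts and HA wild type cut replicate 2, it was 0.455 to 0.736. These 3 shared their pattern of high and low windows (Pearson's r of 0.881 to 0.933 over 11093 windows), against r of 0.228 to 0.770 between them and the other 11. Uneven coverage therefore moves with the uncut state: 2 of 2 uncut and 1 of 12 cut extracts have it. HA wild type replicate 2, with an SD of 0.455, is the cut extract nearest to the uncut ones in evenness. It is still more even than both, at 0.555 (Pk) and 0.736 (HA), so part of the uneven pattern can remain in its differences from them. Its values are given beside many of the pooled ones.

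The DNA was lowest in the cut extracts around chromosome 5, positions 119001 to 120000, the window at which the running mean of 5 windows fell to 13.3% of that in the uncut extracts. The Pk extracts alone, at 14.9%, and the HA and untagged extracts alone, at 12.7%, gave the same window. It lies 119 kb from the left end of the chromosome. Relative coverage in this window was 0.0734 at the lowest, 0.137 at the median and 0.219 at the highest of the 12 cut extracts, against 1.46 in the Pk uncut and 1.77 in the HA uncut extract. One kb to the left, the 12 cut extracts ran from 0.0521 through a median of 0.114 to 0.179, and the uncut ones stood at 1.12 and 1.13. At 2 kb to the left the range was 0.0643 to 0.227 with a median of 0.105, beside 0.998 and 1.11 uncut. Every cut extract was far below both uncut extracts in these 3 windows, and neither uncut extract showed a hole. As these windows placed the break, their depth is a description.

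**Figure D1:**
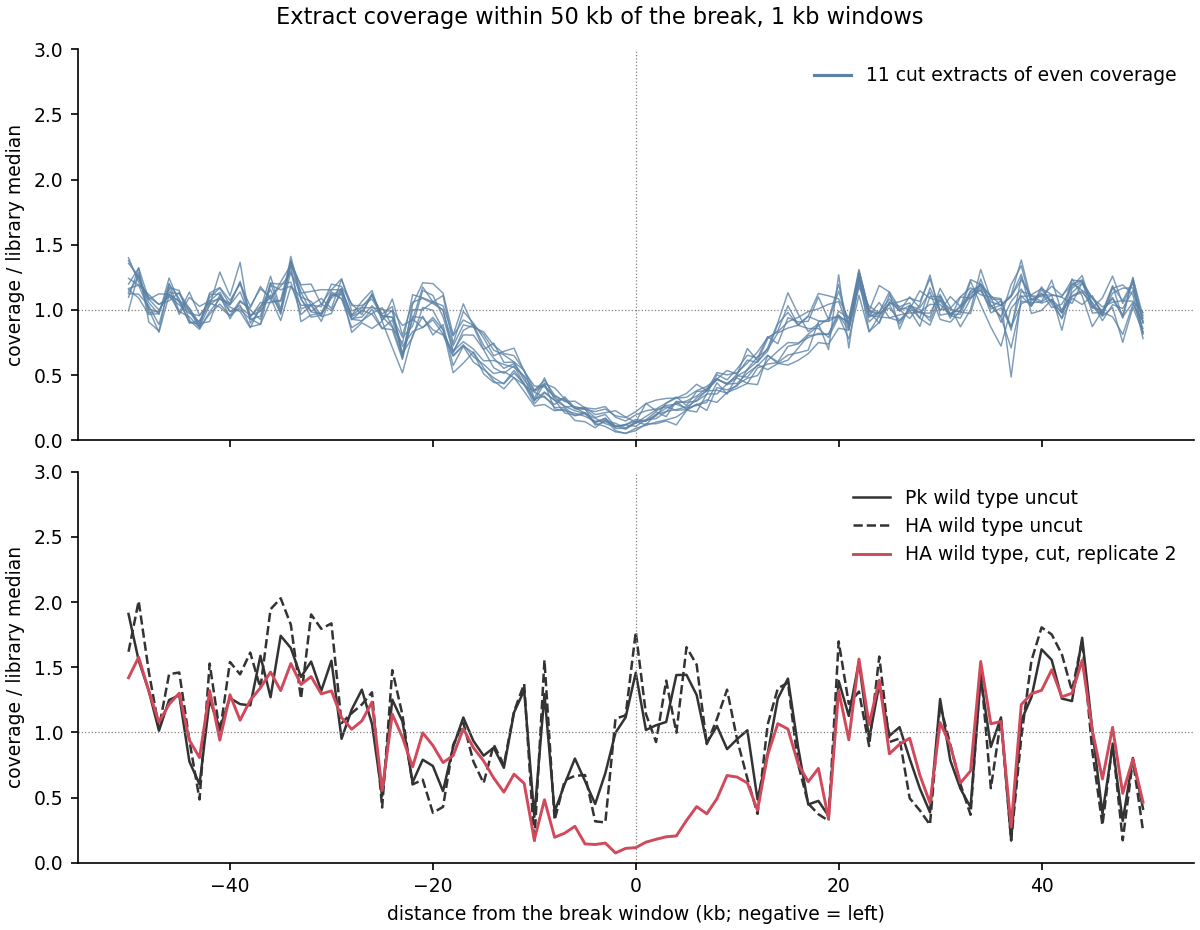
Relative coverage (coverage over the library median) in 1 kb windows within 50 kb of the break window, left negative. The upper panel has 1 line for each of the 11 cut extracts of even coverage, which fall together to between about the break and 2 kb to its left; the lower panel has both uncut extracts, which stay up at the break, and HA wild type cut replicate 2, which falls while sharing their jagged pattern farther out.

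The loss formed a single basin with a slow rise on each side. Cut coverage over the library median was lowest just left of the break window, where the uncut extracts were lower too. Against the uncut extracts the log2 difference was largest at the break window itself, at −3.17, beside −2.90 and −2.74 at 1 and 2 kb left. At 1 to 5 kb left, mean relative coverage in the cut extracts was 0.104 at the lowest, 0.145 at the median and 0.215 at the highest, against 0.776 (Pk) and 0.708 (HA) uncut. At 1 to 5 kb right it was 0.150, 0.228 and 0.313, against 1.21 and 1.22. No cut extract overlapped an uncut one on either side, and cut coverage was 20.9% ± 5.24 of the uncut mean on the left and 18.8% ± 3.77 on the right (SD, n = 12). The deposited coverage behind the cut values was a median of 11.5 on the left and 15.8 on the right; the number of reads behind it is not known.

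At 6 to 10 kb the extracts had regained part of their coverage. The left class ran from 0.231 through a median of 0.310 to 0.357 in the cut extracts, against 0.689 and 0.668 uncut. The right class ran from 0.327 through 0.424 to 0.525, against 1.02 and 1.16. All 12 cut extracts were below both uncut extracts, at 44.8% ± 5.77 of the uncut mean on the left and 37.8% ± 5.19 on the right (SD, n = 12). At 11 to 15 kb left the cut extracts stood at 0.453 to 0.682 with a median of 0.584, against 0.982 and 0.961, or 59.3% ± 8.57. At 11 to 15 kb right they stood at 0.537 to 0.793 with a median of 0.727, against 1.00 and 0.961, or 69.8% ± 10.2. These groups again did not overlap. Nor did they at 31 to 50 and 51 to 100 kb on both sides, or at 16 to 20 kb right, where the cut extracts were higher. All 12 cut extracts were below both uncut ones in 27% of all kept windows, so lack of overlap by itself sets no class apart.

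At 16 to 20 kb no loss was left relative to the uncut extracts. The cut extracts held 0.718 to 1.01 (median 0.876) on the left, where the uncut ones held 0.846 and 0.714, and 0.725 to 1.03 (median 0.865) on the right, where both uncut extracts, at 0.713 and 0.721, were lower. The cut extracts were thus at 109% ± 12.9 and 124% ± 14.2 of the uncut mean (SD, n = 12), although most of them were under their own library median. At 21 to 30 kb the cut extracts were at 0.862 to 1.04 left and 0.988 to 1.07 right, close to their library median.

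**Figure D2:**
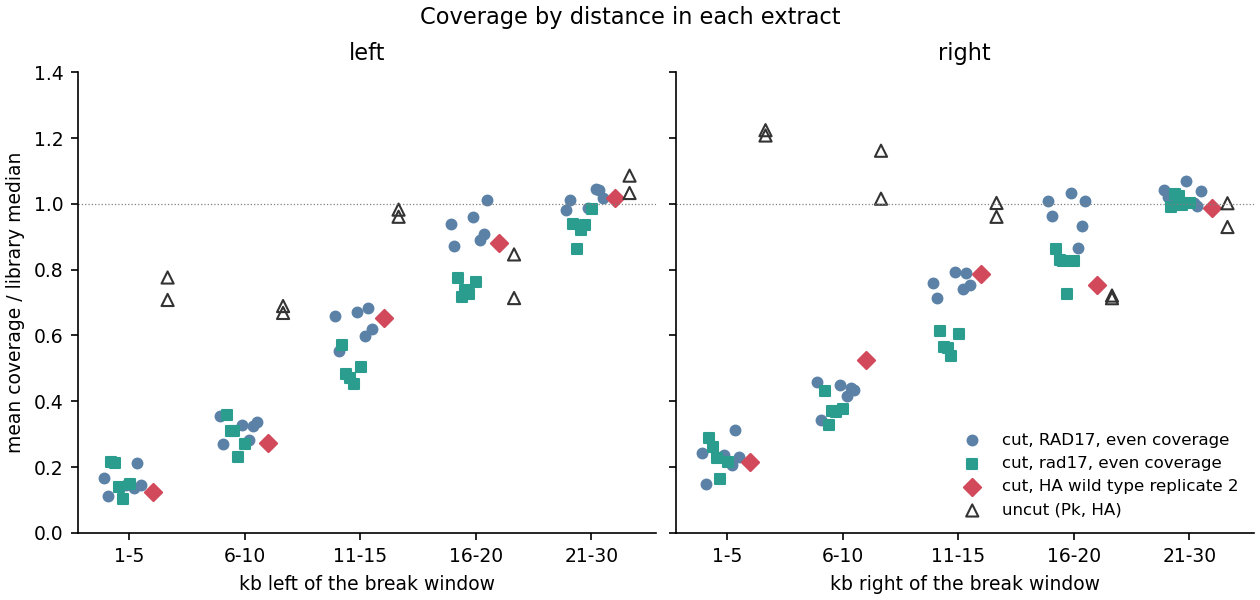
Mean relative coverage of each extract by distance left and right of the break window (kb), 1 point per extract. The cut extracts rise from 0.104 to 0.313 at 1 to 5 kb to about 1 at 21 to 30 kb; the uncut extracts (triangles) are above all cut extracts up to 15 kb and below most of them at 16 to 20 kb.

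The size of the basin was tested with limma (Benjamini-Hochberg adjustment over 250 regions, that is 14 distance classes and bins of 50 kb over the rest of the genome). Cut over uncut coverage on the log2 scale was −2.30 ± 0.24 (SE) left of the break and −2.44 ± 0.20 right of it at 1 to 5 kb, given without a p. At 6 to 10 kb it was −1.17 ± 0.13 left (limma adjusted p = 1.08e-05) and −1.41 ± 0.13 right (limma adjusted p = 4.89e-06). At 11 to 15 kb it was −0.77 ± 0.14 left (limma adjusted p = 0.000301) and −0.53 ± 0.15 right (limma adjusted p = 0.00477). Farther out, the fit also called 31 to 50 kb left lower (−0.36, limma adjusted p = 0.000148), and both sides at 51 to 100 kb (−0.09 left, limma adjusted p = 0.00303; −0.17 right, limma adjusted p = 9.97e-05). On the right it called 16 to 20 kb (0.30, limma adjusted p = 0.0285), 21 to 30 kb (0.07, limma adjusted p = 0.0325) and 31 to 50 kb (0.14, limma adjusted p = 0.000663) higher. In all 9 of the 14 classes were thus lower and 3 higher, but the fit called 119 of the 250 regions lower, 47.6%, so a call by itself sets no region apart. With coverage over the library mean instead of the median, 83 regions were lower and 97 higher, against 119 and 54. The exact two-sided permutation test over extracts, 12 against 2, gave 0.022, the smallest p this design allows, for each class from 6 to 15 kb. It gave the same for 16 to 20 kb right and for both sides at 31 to 50 and 51 to 100 kb, so it does not set the classes near the break apart.

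A term for the 3 extracts of uneven coverage, which makes the cut effect rest on extracts of like coverage, left 7 of 250 regions lower, 2.8%. Of these 7, 4 were the classes at 1 to 5 and 6 to 10 kb on both sides, and none of the 10 classes farther out was called in either direction. The difference was then −1.31 ± 0.21 at 6 to 10 kb left (limma adjusted p = 0.00157) and −1.05 ± 0.18 at 6 to 10 kb right (limma adjusted p = 0.00303). At 11 to 15 kb it was −0.57 ± 0.23 left (limma adjusted p = 0.103) and −0.32 ± 0.23 right (limma adjusted p = 0.347), so this fit no longer called a loss there. With each extract's SD of coverage as a numeric covariate instead, the loss at 6 to 10 kb was −1.43 left (limma adjusted p = 0.0194) and −0.80 right (limma adjusted p = 0.281). As a percentage, the contrast behind the term, HA wild type replicate 2 alone against the uncut mean, gave 16.8% at 1 to 5 kb left and 17.6% right. It gave 40.2% and 48.3% at 6 to 10 kb, 67.2% and 80.2% at 11 to 15 kb, and 113% and 105% at 16 to 20 kb. At 1 to 5 kb on both sides and at 6 to 10 kb left this single extract was at least as low as the mean of the 12. At 6 to 15 kb right it was higher, and also at 11 to 15 kb left, 67.2% against 59.3%.

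The basin was also deep against kept bins of other chromosomes within the cut extracts. This reading takes no value from the uncut extracts, but they enter the choice of bins. A bin counted only if the cut and uncut means averaged 0.25 to 4 in each of its windows. Bins low in every extract were thus removed beforehand, which in part fixes the counts below. The outer 20 kb at chromosome ends were left out. Over 2078 bins of 5 kb elsewhere, the mean of the 11 even cut extracts had a median of 1.01, a first percentile of 0.858 and a lowest value of 0.577. None of these bins was as low as the classes at 1 to 5 or 6 to 10 kb on either side or at 11 to 15 kb left. Only 2 of 2078 were as low as the class at 11 to 15 kb right. At 16 to 20 kb, 17 bins were as low as the left class and 52 as the right class.

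The return of coverage was measured as the first window whose running mean of 3 windows reached a given share of the reference. Coverage can fall under that share again farther out. Left of the break, the log2 difference of cut and uncut extracts was −0.27 at 8 kb and 0.34 at 10 kb. It was −1.72 at 9 kb and −1.41 at 11 kb, so a short distance to 50% on the left does not mark a lasting return. Against the uncut extracts, 50% was reached 7 to 14 kb to the left (median 10 kb over the 12 cut extracts) and 9 to 11 kb to the right (median 10.5 kb). The level of 80% was reached 14 to 19 kb to the left (median 14.5 kb) and 11 to 17 kb to the right (median 12 kb). The ranges of left and right overlapped at both levels. Against the library median alone, 50% was reached at 11 to 15 kb left (median 12 kb) and 8 to 12 kb right (median 11 kb), and 80% at 15 to 20 kb left (median 17 kb) and 14 to 20 kb right (median 14.5 kb). For HA wild type replicate 2 against the uncut extracts the distances were 11 kb left and 9 kb right for 50%, and 14 kb left and 12 kb right for 80%.

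Whether the loss was heavier on one side depended on the reference and on the distance. Missing DNA was counted as the sum of reference minus cut relative coverage over 1 kb windows, so that 1 kb is 1 typical window lost in full. Summed over 50 kb per side against the uncut extracts, the DNA missing was 9.28 to 16.4 kb on the left, 13.5 ± 2.14 kb on average, and 3.56 to 8.62 kb on the right, 6.45 ± 1.64 kb on average (SD, n = 12). More was missing on the left in 12 of 12 cut extracts, by 7.00 ± 2.15 kb (exact sign-flip permutation test, two-sided, p = 0.000488, the smallest it can give). Both uncut extracts enter every one of these differences, so this p does not carry their error. Against the library median alone the sums were 9.04 ± 2.14 kb left and 7.68 ± 1.64 kb right, and the left excess was 1.36 ± 2.15 kb, seen in 9 of 12 extracts (exact sign-flip permutation test, p = 0.0566). HA wild type replicate 2 alone, against the uncut extracts, lacked 9.28 kb left and 7.36 kb right. Within 20 kb of the break the sign against the uncut extracts was the opposite: 6.44 kb was missing left and 8.96 kb right, in 12 of 12 extracts (exact sign-flip permutation test, p = 0.000488).

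The uncut reference was itself uneven over these distances. At 31 to 50 kb left the uncut extracts stood above their medians, at 1.31 (Pk) and 1.48 (HA), while the cut ones ran from 1.03 through a median of 1.08 to 1.27. At 1 to 5 kb the uncut extracts themselves were lower on the left, at 0.776 and 0.708, than on the right, at 1.21 and 1.22, and at 6 to 10 kb likewise, by −0.68 on the log2 scale. At 16 to 20 kb right both were low, as given above. Side means over 20 kb in the cut extracts were 0.471 ± 0.0522 left and 0.553 ± 0.0582 right (SD, n = 12), and in the uncut extracts 0.824 and 0.763 left and 0.985 and 1.02 right. The left side was thus the lower one in both states.

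The class at 11 to 15 kb was the one within 15 kb of the break in which left and right differed in the same direction under each reference. The left was lower by −0.23 on the log2 scale against the uncut extracts (exact sign-flip permutation test, p = 0.000854 adjusted over 7 classes) and by −0.25 against the library median (p = 0.00114, adjusted likewise), in 12 of 12 cut extracts. HA wild type replicate 2 against the uncut extracts gave −0.26. Set against the left-right difference of the uncut extracts themselves, it did not pass (exact permutation test, 12 against 2, adjusted p = 0.0769). At 6 to 10 kb the left-right difference was 0.24 against the uncut extracts, −0.44 against the library median and −0.27 in HA wild type replicate 2. At 1 to 5 kb these values were 0.14, −0.57 and −0.06.

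**Figure D3:**
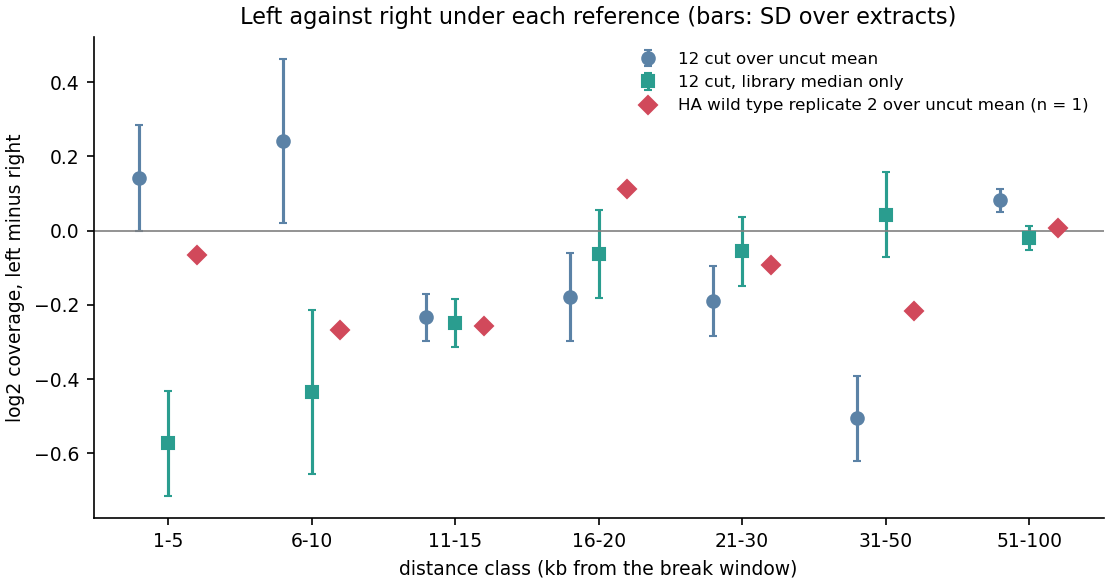
Difference in log2 coverage, left minus right of the break, for 7 distance classes under 3 readings (bars, SD over the 12 cut extracts; diamonds, 1 extract). The 3 readings lie together at −0.23 to −0.26 in the class at 11 to 15 kb, and apart at 1 to 5, 6 to 10 and 31 to 50 kb.

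A relation between the DNA missing on the left and on the right was not shown over all cut extracts. Over the 12 cut extracts, with no uncut reference, Pearson's r was 0.378 (permutation p = 0.226) and Spearman's rho 0.476 (permutation p = 0.121). Without the 2 extracts farthest from the median on the left, HA wild type replicate 2 and HA rad17 pds5-AID replicate 2, r was 0.580 (permutation p = 0.0805) and rho 0.636 (permutation p = 0.0540) over 10 extracts. Over the 11 even extracts r was 0.624 (permutation p = 0.0435) and rho 0.673 (permutation p = 0.0280), so the relation depends on which extracts enter.

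Window by window, limma called 4310 of 11641 kept windows lower in the cut extracts, 37%, and 3717 higher, 31.9% (Benjamini-Hochberg adjustment over the windows). Within 20 kb of the break, 30 of 41 windows were lower, and elsewhere 4280 of 11600, or 36.9%. The lower windows around the break joined into one region of 29 called windows at chromosome 5, positions 101001 to 135000. With the term for uneven coverage, 229 windows were lower, 1.97%, of which 21 lay within 20 kb, between 12 kb left and 10 kb right, and 208 elsewhere. The region around the break in the fit with that term was chromosome 5, positions 107001 to 130000, with 21 called windows. With the SD of coverage as a covariate instead of the term, 12 windows were lower, 10 of them within 20 kb. With neither, but without the HA uncut extract, 2349 windows were lower, 24 of them within 20 kb.

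The same contrast shows in the overlap of extracts. All 12 cut extracts were below both uncut extracts in 3139 of 11641 windows, 27%. Within 20 kb this held for 29 of 41 windows, 70.7%, with an unbroken run of 7 windows to the left and 10 to the right of the break window. HA wild type replicate 2 was below 50% of each uncut extract in 21 windows, 0.18%, of which 18 were among the 41 windows near the break and 3 among the 11600 elsewhere. Those 3, found by this count after the values were seen, are chromosome 10, positions 754001 to 755000, and the adjoining chromosome 13 windows at 601001 to 602000 and 602001 to 603000.

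**Figure D4:**
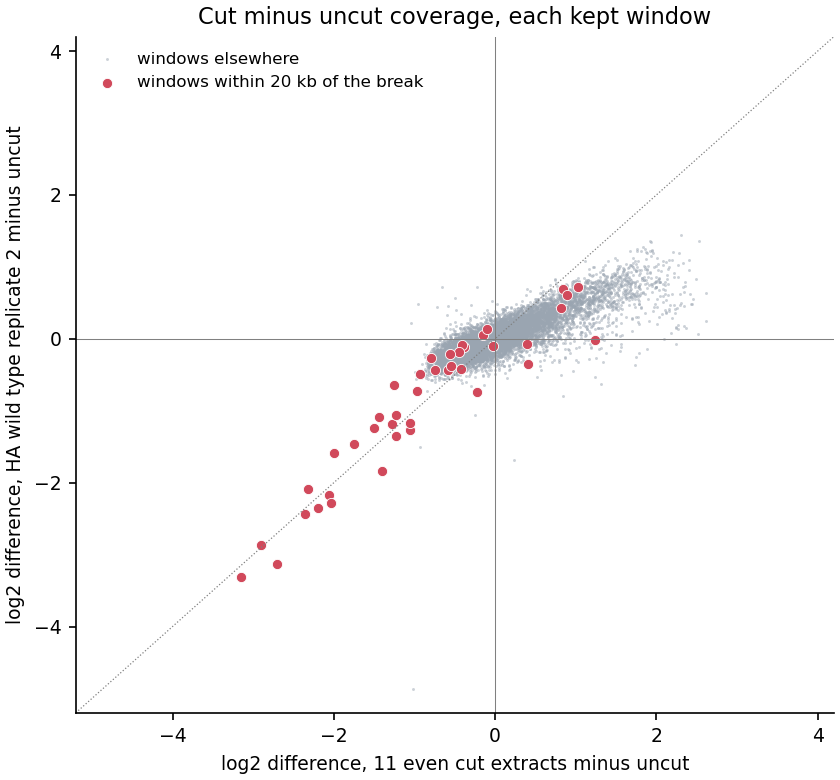
Cut minus uncut log2 coverage in each kept window, with the 11 even cut extracts on the x axis and HA wild type cut replicate 2 on the y axis; the dotted diagonal marks equal differences. Windows within 20 kb of the break (large points) run down the diagonal past −3 on both axes, while the other 11600 windows spread about 0 with an SD of 0.572 on x and 0.287 on y (r of 0.825 across windows, which share the uncut extracts).

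The break window stood at −3.17 on the log2 scale in the fit of all 12 against 2, a depth that its choice as the lowest place fixed in part. Of the 10 regions away from the break with the largest falls, the 5 largest were chromosome 15, 477001 to 487000 (lowest window −0.95, limma adjusted p = 0.00107), chromosome 12, 1078001 to 1079000 (−0.94, limma adjusted p = 0.0275), chromosome 5, 445001 to 467000 (−0.90, limma adjusted p = 0.0196), chromosome 13, 62001 to 67000 (−0.89, limma adjusted p = 2.54e-05) and chromosome 7, 845001 to 861000 (−0.87). The other 5 fell by 0.83 to 0.86. With the term for uneven coverage only 2 of the 10 passed, chromosome 13, 62001 to 67000 (−0.55, limma adjusted p = 0.0386) and chromosome 16, 284001 to 295000 (−0.52, limma adjusted p = 0.0207), and the chromosome 12 window turned to 0.22. In HA wild type replicate 2 alone the lowest windows of the 10 regions differed from the uncut extracts by −0.73 to 0.12. The fit with the term called other windows deeper than these: the chromosome 13 window at 602001 to 603000 stood at −4.87 (limma adjusted p = 0.0104), below the break window at −3.31, and the chromosome 10 window at 754001 to 755000 at −1.06 (limma adjusted p = 0.000875). That chromosome 13 window was listed at 0 in HA wild type replicate 2, on which the cut effect in this fit rests, and the 11 even cut extracts averaged 0.815 there.

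In the 2 regions that passed, the uncut extracts were high rather than the cut ones low. At the lowest window of the chromosome 13 region at 62001 to 67000 the cut extracts stood at 0.898 to 1.39, against 1.80 (Pk) and 2.36 (HA) uncut. At that of the chromosome 16 region they stood at 0.925 to 1.38, against 1.80 and 2.22. All 12 cut extracts were below both uncut extracts but around their library median, unlike the windows at the break. The 5 largest rises, with a log2 difference of 2.31 to 2.45, lay on chromosomes 3, 7, 8 and 11. In HA wild type replicate 2 alone the same windows differed from the uncut extracts by 0.07 to 1.37.

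Within 100 kb of the break but apart from the central region, 15 joined regions were called lower, with a log2 difference at their lowest window of −0.80 to −0.22, and 16 higher, with 0.16 to 1.98. With the term for uneven coverage 2 of the 15 and 5 of the 16 passed, and 1 and 2 of them changed sign. In HA wild type replicate 2 alone the 15 differed from the uncut extracts by −0.50 to 0.08 and the 16 by −0.08 to 0.97. Among whole regions, that term left 3 lower calls outside the break classes: chromosome 6, 1 to 50000 (−0.17, limma adjusted p = 0.0431), chromosome 12, 500001 to 550000 (−0.13, limma adjusted p = 0.0104) and chromosome 12, 750001 to 800000 (−0.08, limma adjusted p = 0.0112). Their falls are small beside those at 6 to 10 kb.

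A few windows were low in some extracts and not in others. In the chromosome 13 window at 601001 to 602000, HA wild type replicates 1 and 2, which are the same strain, stood at 0.120 and 0.197, and in the next window, 602001 to 603000, both were listed at 0. All other extracts, the uncut ones included, held at least 69.6% of their library median in the first window and 82.9% in the second. At chromosome 1, 191001 to 192000, the 3 Pk cut extracts stood at 0.971 to 1.10 and the Pk uncut one at 1.76, against 0.150 to 0.385 in the HA and untagged extracts, cut or not. At chromosome 3, 12001 to 13000, the untagged extract stood at 2.44, HA rad17 pds5-AID replicates 1 and 2 at 0.860 and 0.788, and the rest at 0.0571 to 0.148. In these 4 windows replicates of one strain were low or high together. At the chromosome 1 window they still varied, at 0.385 and 0.211 in HA wild type and at 0.154 and 0.303 in HA rad17. In other windows replicates were less alike. At chromosome 12, 13001 to 14000, HA rad17 pds5-AID stood at 0.241 and 0.522. At chromosome 1, 192001 to 193000, HA rad17 stood at 0.235 and 0.692. The chromosome 16, 4 and 7 windows at 743001, 672001 and 564001 were instead low in the 3 extracts of uneven coverage, at 0.113 to 0.167, 0.141 to 0.155 and 0.198 to 0.242, with the Pk wild type extract without nocodazole near them at 0.208, 0.235 and 0.266, and with Pk wild type at 0.237 in the chromosome 7 window. The windows were found by a rule set after the values were seen, and 9 met it.

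**Figure D5:**
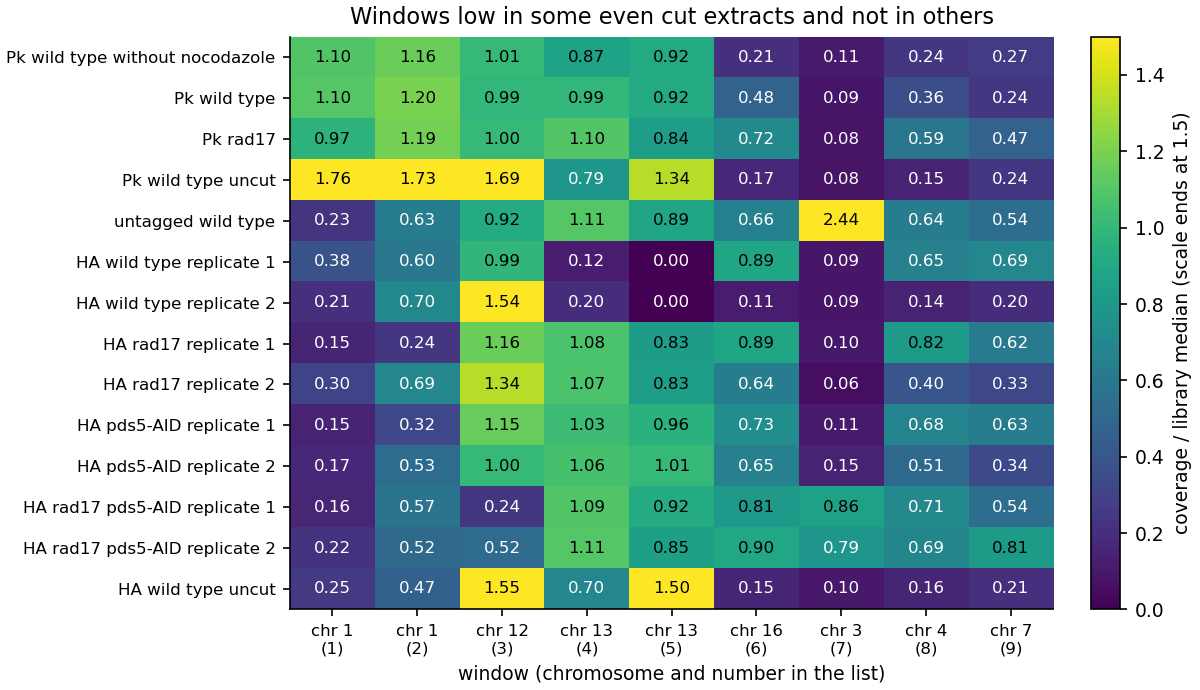
Relative coverage of each extract (rows) in the 9 windows outside the break region that were below 0.25 in some even cut extract and above 0.75 in another (columns; colour scale ends at 1.5). The chromosome 13 windows are low in both HA wild type cut replicates alone, and the first chromosome 1 window is high in the 4 Pk extracts alone.

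The loss was compared across the study's conditions with no uncut reference, each cut extract relative to its own library median. The single pair without and with nocodazole (Pk wild type, no replicate and no test) stood at 21.2% and 13.5% of the library median at 1 to 5 kb left, and on the right at 31.3% and 20.6%. At 6 to 10 kb the pair stood at 32.5% and 28.2% left and at 44.1% and 41.7% right. Coverage without nocodazole was the higher one in 20 of 21 windows within 10 kb of the break, which are neighbouring windows of this single pair. How often it was the higher one elsewhere was not counted. The ratio of the pair, without over with nocodazole, stayed above 1 in the next classes. For 11 to 15 kb it came to 1.14 (left side) and 1.07 (right side), and for 16 to 20 kb to 1.02 (left side) and 1.08 (right side). In the classes from 21 to 100 kb this ratio ran from 0.991 to 1.01.

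The pds5-AID allele was compared with PDS5 among the 8 HA cut extracts, 4 against 4 with rad17 and RAD17 in equal number. DNA missing over 50 kb was 10.1 ± 1.54 kb with pds5-AID and 8.88 ± 3.15 kb with PDS5 on the left (SD, n = 4 each; exact permutation test, p = 0.543), and 7.39 ± 1.61 and 7.95 ± 2.19 kb on the right (exact p = 0.629). The PDS5 group includes HA wild type replicate 2, of uneven coverage, which lacked 4.87 kb on the left. Without it the left difference, pds5-AID minus PDS5, went from 1.17 to −0.166 kb, so its direction rested on that extract. Relative coverage at 1 to 5 kb, both sides together, was 0.206 ± 0.0537 with pds5-AID and 0.169 ± 0.0250 with PDS5 (exact p = 0.257). At 6 to 10, 11 to 15 and 16 to 20 kb the means were 0.356 and 0.357, 0.614 and 0.616, and 0.871 and 0.830. No difference between these alleles passed the test (adjusted p of 0.943 or more over 6 measures; smallest p possible 0.0286), which does not show that they act alike.

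The 5 rad17 extracts held 49.5% to 59.2% of the library median at 11 to 15 kb, both sides together, and the 7 RAD17 extracts 63.3% to 73.7%. The ranges overlapped at 1 to 5 kb, 13.4% to 25.1% and 13.1% to 26.2%, and at 6 to 10 kb, 29.9% to 39.4% and 30.6% to 40.8%. In rad17 the 80% level was reached 19 to 20 kb left and 17 to 20 kb right of the break, against 15 to 18 kb and 14 to 15 kb in RAD17. The difference between rad17 and RAD17 was not tested, and how often these groups part elsewhere was not counted. The RAD17 group also holds the extract without nocodazole, the untagged one and HA wild type replicate 2, of uneven coverage. The tag made no difference that passed: limma called 0 of 250 regions for the difference in cut effect between Pk and the HA and untagged extracts together, with 42 at an unadjusted p under 0.05.

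The immunoprecipitates, whose signal is not a reading of input DNA, were also low at the break. Their lowest signal within 10 kb lay 1 or 2 kb to its left in all 12 cut libraries, at 0.0882 to 0.437 of the library median. In the uncut libraries the lowest window was not much higher, at 0.499 (Pk, 7 kb left) and 0.461 (HA, 4 kb right), but lay farther from the break. Mean signal within 2 kb was 0.172 to 0.879 of the library median in the cut libraries, against 2.50 (Pk) and 1.91 (HA) in the uncut ones. The untagged library, at 0.172, was the lowest.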

How the data were processed

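The deposited signal of each extract, with no header, was taken as read coverage in 1 kb windows (12447 windows on 16 chromosomes). The smallest value above 0 is 1, so no scaling is visible. How bases without reads enter the value of a window is not stated. If they are left out, low windows read too high, which would touch the percentages and missing DNA near the break. This was not tested. Bowtie2, SAMtools, bedtools and MACS2 are named, without versions or roles, per the submitters' processing notes. A genome build was not given in the sources used here, so no gene was placed and no sequence read. Depth in reads per library is unknown.

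Each value was divided by its library median. Windows whose cut and uncut means averaged 0.25 to 4 were kept (11641). Windows were tested as log2(relative coverage + 0.05), which understates changes of low windows, with limma 3.58.1 in R 4.3.3, 12 cut against 2 uncut, without a block. Regions were tested as log2 of mean relative coverage. Benjamini-Hochberg adjustment and a threshold of 0.05 were used. Called windows up to 2 kb apart were joined; named are all joined regions within 100 kb of the break, the 10 largest falls and the 5 largest rises elsewhere. Single values had exact permutation or sign-flip tests. Missing DNA is the sum over 1 kb windows of reference minus cut relative coverage, the reference being the uncut mean or 1. The window fit was tested on simulated data. Python 3.11.15, pandas 2.3.3, NumPy 2.4.6, SciPy 1.17.1 and matplotlib 3.10.9 were used.

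The extracts, lists and tests were chosen with earlier results of these data known. Alternatives changed the pseudocount, filter, scaling, reference, break placement, summed distance, running mean, spread estimate and covariates, and left out extracts. The readings of the 11 even cut extracts without a reference were added after seeing the data.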

Additional observations from a re-analysis of the deposited data

How the results depend on the processing

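The 54 results were recomputed under alternative settings, which gave 1102 values in all. Of these, 986 were labelled the same, 72 weaker, 19 moved and 25 changed in sign. The 986 include every leave-one-out value of the differences between pds5-AID and PDS5, some of which did change sign. For DNA missing, pds5-AID minus PDS5 ran from −0.166 to 2.13 kb left and from −1.62 to 0.164 kb right. In relative coverage it ran from −0.0201 to 0.0159 at 6 to 10 kb and from −0.0416 to 0.0374 at 11 to 15 kb. No paired analysis was possible because the uncut titles carry no replicate number and the cut and uncut groups share fewer than 2 numbers. Coverage near the break was lowest (median cut coverage 11.5 and 15.8 at 1 to 5 kb), and the reads behind it are not known. Where no cause is named, the cause was not tested.

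With the term for uneven coverage 229 windows were lower, 208 of them beyond 20 kb, and 930 higher; with each extract's SD as a covariate 12 were lower, 10 within 20 kb and 2 beyond, and 2 higher. Classes at 11 to 15 kb then lost their call, at −0.57 left and −0.32 right with the term, and at −0.48 and −0.22 with the SD, which also took the call at 6 to 10 kb right (−0.80). With the SD, the sign changed at 16 to 20 kb right (−0.0215), 21 to 30 kb left (0.0324) and right (−0.0522) and 31 to 50 kb left (0.0700). Within tags the class at 11 to 15 kb right lost its call (Pk −0.50, HA and untagged −0.52), and Pk turned at 21 to 30 kb right (−0.00293). Against the Pk uncut extract alone, 16 to 20 kb left turned (−0.00509). Over the library mean 83 regions were lower and 97 higher, against 119 and 54 over the median; the log2 of mean over median differed by −0.04 between cut and uncut extracts, so dividing by the mean raises the cut ones relative to the uncut.

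DNA missing left was 9.04 kb without a reference, 9.42 kb so in the even extracts, 9.28 kb in HA wild type replicate 2, 11.1 kb within Pk, 6.44 kb over 20 kb and 16.6 kb over 100 kb. Missing right was 8.96 and 12.8 kb over 20 and 100 kb. Left minus right was 1.36 kb without a reference, 1.92 kb in HA wild type replicate 2, 4.05 kb within Pk (exact sign-flip p = 0.25, the smallest 3 extracts allow) and −2.52 kb over 20 kb. The 50% distance left was 7 kb against the HA uncut extract, and right 9 kb in HA wild type replicate 2. The 80% distance left was 17 kb without a reference, 18 kb so in the even extracts (15 kb right) and 8 kb with single windows.

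The left-right classes from 1 to 5 kb outward, leaving out 11 to 15 kb, were without a reference −0.57, −0.44, −0.0624, −0.0562, 0.0424 and −0.0201; in HA wild type replicate 2, −0.0647, −0.27, 0.11, −0.0918, −0.22 and 0.00655. Within Pk all 7 were 0.0664, 0.0676, −0.23, −0.29, −0.0111, −0.35 and 0.11. The even extracts without a reference gave −0.55, −0.39, −0.0652 (21 to 30 kb), 0.0162 and −0.0133, and HA with untagged −0.0548 at 16 to 20 kb.

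Of the named regions, chromosome 12 from 1078001 turned with the term (0.22) and with the SD (1.34); the rises at chromosome 3 from 309001 (−0.31), chromosome 11 from 17001 (−0.79), chromosome 7 from 683001 (−0.25) and chromosome 3 from 14001 (−1.01) turned with the SD. Leaving out 1 extract at a time gave 2349 to 4597 windows lower, 2325 to 4567 of them beyond 20 kb (the lowest without the HA uncut extract), a 50% distance left of 7 to 11.5 kb (lowest without the Pk uncut extract) and −0.00509 to 0.24 at 16 to 20 kb left (lowest without the HA uncut extract).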
